A study of Mus musculus with 5 samples.

Results

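The 10 genes followed here belong to the S100 protein, annexin and galectin families and were measured in tumor-specific CD4+ T cells. They were S100a4, S100a6, S100a10, S100a11, Anxa1, Anxa2, Anxa5, Anxa6, Lgals1 and Lgals3. Their probe sets were found by platform gene symbol. Of 45101 probe sets on the array, 18 carried a single symbol that was one of these genes, and they covered 9 of the 10 genes. S100a11 appeared on 1 probe set only, whose annotation also lists the pseudogenes S100a11-ps and Gm12854. Its value is therefore given apart and cannot be assigned to the gene alone. The cells came from Balb/c mice 7 to 12 weeks old that carry a T cell receptor transgene on a SCID background. SCID mice lack most B cells and T cells of other specificities but keep myeloid and NK cells. For the 3 activated samples, transgenic mice (12 to 15 injected) received 100000 MOPC315 myeloma cells under the skin in 250 µl of Matrigel. On day 8, CD4+ cells that bound GB113, the antibody used to recognise the transgenic receptor, were sorted from pooled draining axillary nodes to a purity of at least 95%. For the 2 naive samples, CD4+ cells with the same receptor were taken from pooled lymph nodes of uninjected transgenic SCID mice. A group given Matrigel alone was not analysed here, so activation by tumor antigen and exposure to the injected gel cannot be told apart.

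S100 proteins are small EF-hand proteins, most of which expose a binding surface when calcium is bound. Annexins bind acidic phospholipids of membranes in a calcium-dependent way, and some are held in complexes with an S100 dimer, such as annexin A2 with S100A10. Galectins bind beta-galactose on glycoproteins, are secreted without a signal peptide and can cross-link receptors on T cells. Several of these genes are known to be more abundant in effector and memory T cells than in naive ones, and many of them are also abundant in macrophages.

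Lgals1 and Anxa2 rose in activated cells, and the other 7 genes with a probe set of their own did not pass the test on their brightest probe set. Lgals1 was 2.52-fold to 2.99-fold higher on its probe sets and Anxa2 3.98-fold higher. In pooled cells, more cells with a transcript and more of it per cell cannot be told apart. A dimmer probe set of Anxa6 fell while its brightest ones did not pass. S100a4 varied more between arrays of a group than between the groups. Anxa1 and Lgals3 were highest on the 1 activated array that also had the highest sum of macrophage markers. S100a4, S100a6, Anxa2 and Anxa5 were highest on that array too, as were some probe sets of S100a10 and Anxa6.

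The promoters printed are those of Anxa2, which rose, of S100a11, whose probe set shared with pseudogenes fell, and of the S100a4 and S100a6 genes, which lie on the same chromosome as S100a11 and did not pass. The sequences are from RefSeq, build GRCm38.p6, and cover the 250 bases before the annotated start, on the plus strand. Capitals mark the letters TGANTCA, an AP-1 type motif. They also mark TATAAA, the core of the box bound by the TATA-binding protein. Both motifs were searched on both strands, and no match of one overlapped a match of the other. Of 10 members, 7 had an entry in the promoter table, and Lgals1, Anxa6 and S100a10 had none.
Anxa2, chr9:69453433-69453682: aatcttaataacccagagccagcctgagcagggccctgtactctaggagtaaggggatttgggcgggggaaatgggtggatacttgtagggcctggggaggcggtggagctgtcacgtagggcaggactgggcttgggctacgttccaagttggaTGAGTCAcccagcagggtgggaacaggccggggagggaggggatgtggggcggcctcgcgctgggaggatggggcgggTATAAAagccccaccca
S100a11, chr3:93520246-93520495: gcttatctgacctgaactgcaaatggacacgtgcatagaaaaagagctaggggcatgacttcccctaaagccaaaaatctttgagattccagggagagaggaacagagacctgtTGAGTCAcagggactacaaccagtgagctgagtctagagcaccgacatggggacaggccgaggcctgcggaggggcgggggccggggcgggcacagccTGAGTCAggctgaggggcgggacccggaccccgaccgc
S100a4, chr3:90603520-90603769: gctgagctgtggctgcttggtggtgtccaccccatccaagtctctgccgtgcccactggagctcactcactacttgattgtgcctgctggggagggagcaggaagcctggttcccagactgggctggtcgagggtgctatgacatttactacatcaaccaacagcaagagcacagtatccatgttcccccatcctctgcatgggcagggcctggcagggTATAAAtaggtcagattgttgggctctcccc
S100a6, chr3:90612644-90612893: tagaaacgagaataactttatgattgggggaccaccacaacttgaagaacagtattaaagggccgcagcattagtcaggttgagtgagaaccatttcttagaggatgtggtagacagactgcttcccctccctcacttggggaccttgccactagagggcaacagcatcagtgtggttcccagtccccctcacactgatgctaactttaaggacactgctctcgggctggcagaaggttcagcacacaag

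Of the 7 windows, 2 held the AP-1 type motif. It began 95 bases before the start of Anxa2, which rose, and 136 and 38 bases before the start of S100a11, whose shared probe set fell. TATAAA was in 3 of the 7, at 17 bases before the start for Anxa2, 31 for S100a4 and 32 for Anxa1. The windows of S100a6, Anxa5 and Lgals3 held neither motif. Among all 32851 promoter windows of that length in the table, 6.75% held TGANTCA and 12.4% held TATAAA. The Sp1 type letters GGGCGG, searched likewise and not capitalised, occurred 3 times for Anxa2, 3 times for S100a11 and 1 time for Lgals3, and in 32.7% of all windows. The STAT type letters TTCNNNGAA were in 0 of the 7 and in 7.02% of all windows. A match to these letters describes the sequence and was not tested as a binding site.

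Expression was read as the intensity of each probe set on a linear scale, with a 2% trimmed mean of 100 on every array. Differences are given as activated minus naive on log2(intensity + 16), with the standard error (SE) of limma's moderated test and its Benjamini-Hochberg adjusted p over all 29201 probe sets tested. Probe sets brighter than their array's 40th percentile on 2 or more arrays were tested, and 16 of the 18 member probe sets were. The dim probe sets 1444016_at of Anxa1 and 1437691_at of Anxa2, with intensities of at most 7.9, were not. At an adjusted p under 0.05, 3 of the 16 were higher, against a background of 4.8% of all probe sets tested, and 1 was lower, against 2.94%. By its brightest probe set each, 2 of 9 genes were higher and 0 lower, against 5.53% and 3.2% of 12860 genes tested. At an unadjusted p under 0.05, 3 of the 9 were higher, with S100a6 added, and 0 lower. The shares over all genes are for adjusted p. None was counted at this unadjusted threshold, here or for the lists below. The median difference was 0.46 over the 16 probe sets, and -0.03 over all probe sets tested. Groups did not overlap, with the activated arrays above, for 4 of the 16 (25%), near the 18.8% of all probe sets, and with them below for 2 (12.5%), against 20.3%.

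**Figure D1:**
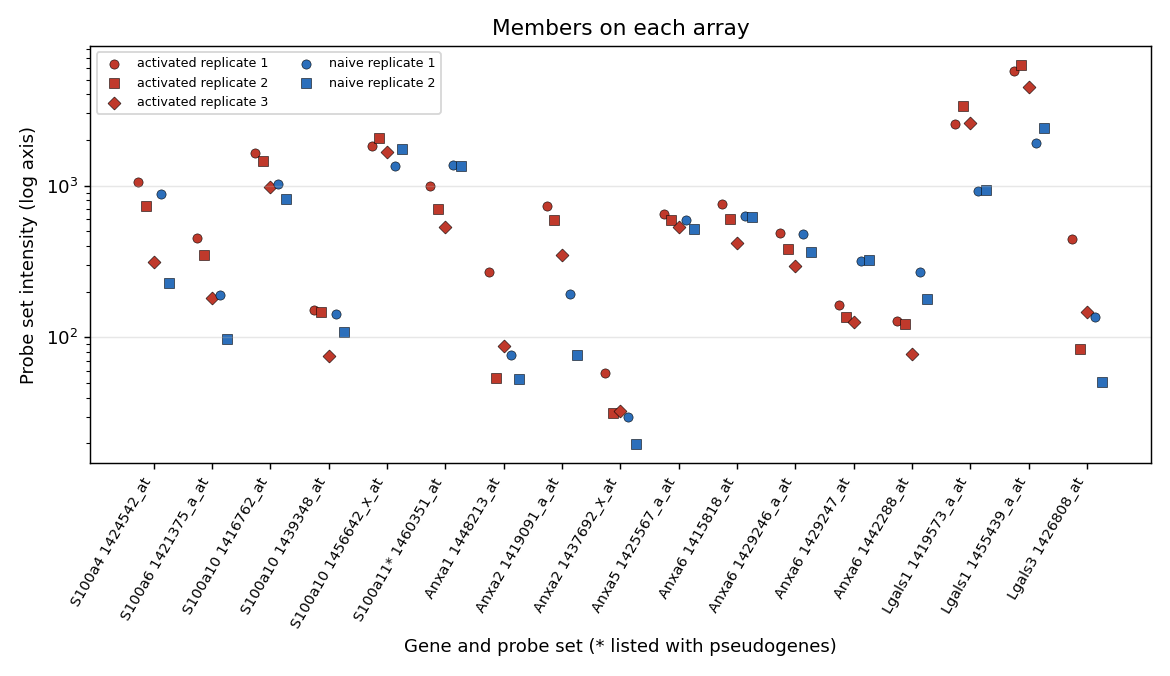
Intensity (log axis) of the 17 tested probe sets that list a member, with 1 point for each of 3 activated (red) and 2 naive (blue) arrays; marker shapes give the replicate. Both Lgals1 probe sets and the Anxa2 probe set 1419091_a_at have all activated arrays above the naive ones, whereas S100a4 ranges from 229.2 to 876.4 between the 2 naive arrays alone.

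**Figure D2:**
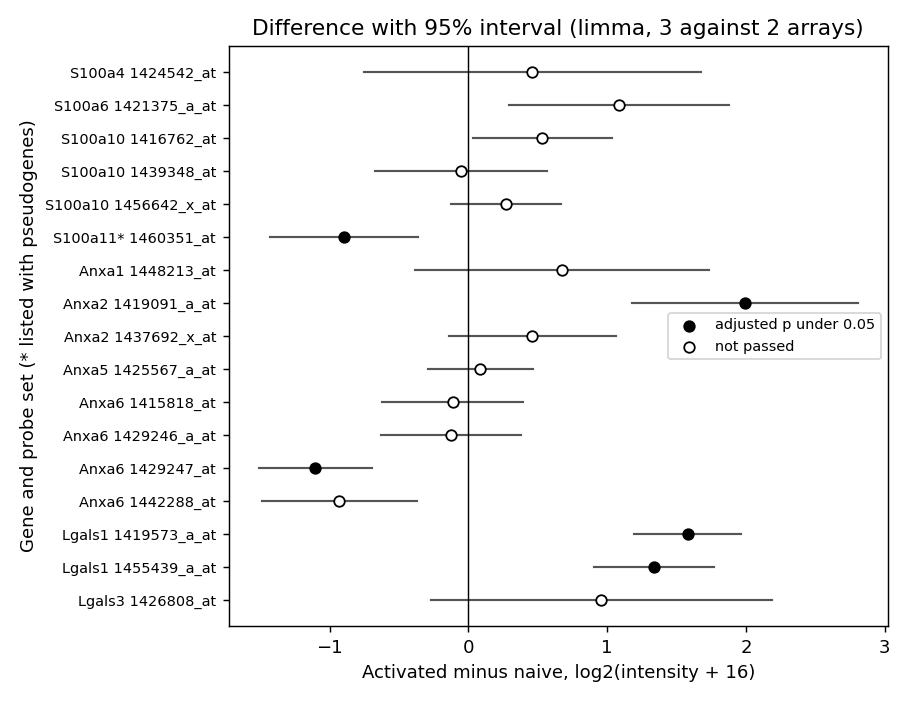
Activated minus naive difference on log2(intensity + 16) for the same probe sets, with the 95% interval of limma's moderated test; filled points have an adjusted p under 0.05. The Lgals1 probe sets lie at 1.58 and 1.34 and the Anxa2 probe set 1419091_a_at at 1.99, and 1 of 4 Anxa6 probe sets lies below 0 with a filled point.

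Among the galectins, Lgals1 encodes galectin-1, a small dimer known to dampen T cell responses when secreted. Its probe set 1455439_a_at read 5731.7, 6271.4 and 4452.6 in activated cells against 1904.8 and 2407.9 in naive cells. The other probe set, 1419573_a_at, read 2567.8, 3352.9 and 2595.3 on the activated and 924.0 and 939.3 on the naive arrays. On both, every activated array lay above every naive array. The differences were 1.34 ± 0.19 (SE, adjusted p = 0.00239) and 1.58 ± 0.17 (SE, adjusted p = 0.000517), which correspond to 2.52-fold and 2.99-fold on this scale. The suffix _a_at marks probe sets that match several transcripts of the same gene, so both probe sets may read the same RNA. The call of Lgals1 was kept on each probe set under every alternative in which it was fitted, including the omission of any single array, with adjusted p of at most 0.0257.

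Lgals3 encodes galectin-3, which has a collagen-like tail, forms lattices on the cell surface and is abundant in macrophages. It read 444.3, 83.1 and 146.9 across the activated arrays against 135.8 and 50.5 on the naive arrays. The groups overlapped, since activated replicate 2 lay below naive replicate 1. The difference of 0.96 ± 0.55 (SE, adjusted p = 0.346) had a 95% interval from -0.27 to 2.18 and so covers both a fall and a rise. With single arrays left out, the difference ran from 0.34 without activated replicate 1 and 0.36 without naive replicate 2 to 1.45 without activated replicate 2 and 1.55 without naive replicate 1.

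Among the annexins, Anxa2 encodes the S100A10-binding annexin of the plasma membrane and endosomes. On probe set 1419091_a_at it read 734.0, 596.8 and 347.1 across the activated arrays against 191.8 and 76.0 on the naive arrays. The lowest activated array was above the highest naive one. The difference of 1.99 ± 0.36 (SE, adjusted p = 0.00863) corresponds to 3.98-fold. The call was lost without activated replicate 2, at 1.92 (adjusted p = 0.0524), and without naive replicate 2, at 1.41 (adjusted p = 0.0570). The dimmer probe set 1437692_x_at, whose suffix warns of cross-hybridisation, read 58.0, 31.7 and 32.6 against 29.6 and 19.7. It did not overlap between groups but its difference of 0.46 did not pass (adjusted p = 0.354). Averaged over all 3 probe sets of Anxa2, the difference was 0.81.

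Anxa1 encodes annexin A1, a glucocorticoid-induced protein whose peptides act on formyl peptide receptors. It read 270.6, 53.8 and 88.0 across the activated arrays against 76.3 and 53.3 on the naive arrays. Activated replicate 1 stood alone, and activated replicate 2 was level with naive replicate 2. The difference of 0.67 ± 0.47 (SE, adjusted p = 0.451) was 0.09 without activated replicate 1 and 1.11 without activated replicate 2. Anxa5 encodes the phosphatidylserine-binding annexin used as a stain for dying cells. It read 646.6, 593.8 and 534.0 against 596.7 and 515.7. Its difference of 0.09 ± 0.17 (SE, adjusted p = 0.824) had a 95% interval from -0.29 to 0.47, and its groups overlapped.

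Anxa6 encodes a large annexin with a duplicated core that links membranes to the actin cytoskeleton. Its 4 probe sets did not give the same result. The brightest, 1415818_at, read 752.2, 598.7 and 421.5 across the activated arrays against 627.5 and 618.0 on the naive arrays, a difference of -0.11 ± 0.23 (SE, adjusted p = 0.829). The next, 1429246_a_at, lay at -0.12 (adjusted p = 0.803). Probe set 1429247_at, whose annotation names the same source cDNA as 1429246_a_at, read 162.7, 137.1 and 126.5 against 320.2 and 323.8. Every activated array there was below both naive arrays, and the fall of 1.10 on the log2 scale passed (SE 0.18, adjusted p = 0.00525). It kept its call under every alternative in which it was fitted. Probe set 1442288_at read 128.7, 123.0 and 77.9 against 268.0 and 179.4, a difference of -0.93 ± 0.25 (SE) that just missed the threshold (adjusted p = 0.0513). It passed under 6 of 17 alternatives. Averaged over all 4 probe sets, Anxa6 lay at -0.57 and did not pass (adjusted p = 0.0985). The positions of these probe sets in the Anxa6 transcripts were not analysed here, so which form of the RNA they read is not known.

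Among the S100 genes, S100a6 encodes calcyclin, a calcium-binding protein of proliferating cells. It read 454.5, 347.2 and 182.2 across the activated arrays against 188.7 and 97.3 on the naive arrays. Activated replicate 3 lay just below naive replicate 1, so the groups overlapped. The difference of 1.09 ± 0.36 (SE) did not pass (adjusted p = 0.100), but passed without activated replicate 3, at 1.44 (adjusted p = 0.0255), and without naive replicate 1, at 1.51 (adjusted p = 0.0499). It lay at 0.66 (adjusted p = 0.426) without naive replicate 2 and at 0.82 (adjusted p = 0.266) without activated replicate 1. S100a10 encodes p11, the partner of annexin A2, whose EF-hands no longer need calcium. Its probe set 1416762_at read 1637.6, 1453.3 and 988.0 against 1027.9 and 813.3, a difference of 0.53 ± 0.23 (SE, adjusted p = 0.195). The probe set 1456642_x_at, the brightest of the gene, lay at 0.27 (adjusted p = 0.413). It stands for the gene in the counts of genes, although its suffix warns of cross-hybridisation. The dim 1439348_at lay at -0.05 (adjusted p = 0.943). Of the 3 probe sets of this partner of Anxa2, 0 passed, and 1416762_at was higher at an unadjusted p of 0.0399.

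S100a4 encodes a protein that binds non-muscle myosin and is linked to cell motility. It read 1060.5, 734.4 and 314.6 across the activated arrays against 876.4 and 229.2 on the naive arrays. High and low arrays occurred in both groups. The difference of 0.46 ± 0.54 (SE, adjusted p = 0.679) had a 95% interval from -0.75 to 1.67, and it ran from -0.47 without naive replicate 2 to 1.39 without naive replicate 1. The probe set that lists S100a11, a partner of annexin A1, together with its pseudogenes read 1002.1, 703.9 and 531.1 against 1361.6 and 1352.1. All activated arrays were below both naive arrays, with a fall of 0.90 (SE 0.24, adjusted p = 0.0484). This call was lost under 7 of 17 alternatives, among them the omission of activated replicate 2 or 3 or of either naive array, where the adjusted p ran from 0.0915 to 0.161.

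For S100a4, S100a6, Anxa2 on 1419091_a_at and several other members, the order of arrays within each group matched a technical measure. The intensity of bioC, a bacterial RNA added to every sample as a hybridisation control, averaged 639 to 725 on activated replicates 1 and 2 and naive replicate 1. It averaged 172 on activated replicate 3 and 209 on naive replicate 2. The labels do not say whether these were different batches. Activated replicate 3 was the lowest activated array and naive replicate 2 the lower naive array for 9 of 16 member probe sets (56.2%), against 25% of all probe sets tested. S100a4 was higher on the high-bioC arrays by 1.44 within the activated group and by 1.86 within the naive group. Within each side the difference between activated and naive was 0.01 on the high side and 0.43 on the low side. For Anxa2, on probe set 1419091_a_at, the within-side differences were 1.71 and 1.98. For Lgals1, on 1455439_a_at, they were 1.65 and 0.88, and on 1419573_a_at 1.65 and 1.45. For S100a6 they were 1.01 and 0.81. With the bioC side as a block, S100a6 passed the test, at 0.93 ± 0.17 (SE, adjusted p = 0.00929), while S100a4 lay at 0.19 (adjusted p = 0.566). The low side holds a single activated and a single naive array, and the high side a single naive array. The naive value therefore has no replicate on either side, and the activated value none on the low side.

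**Figure D3:**
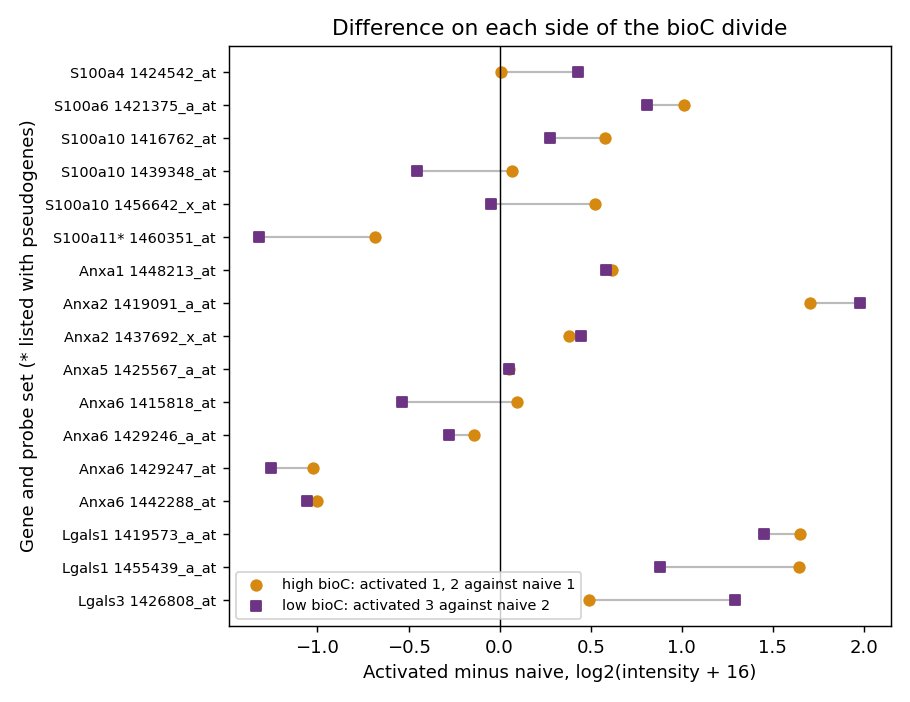
Activated minus naive difference on log2(intensity + 16), computed within the arrays of high bioC intensity (circles) and within those of low bioC intensity (squares), for each tested probe set that lists a member. Lgals1, Anxa2 and S100a6 lie above 0 on both sides, and S100a4 lies at 0.01 and 0.43.

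Lgals3 and Anxa1 are also well known macrophage genes, and their highest arrays were ordered like a sum of macrophage markers. The summed intensity of 18 monocyte and macrophage markers (of 19 listed) was 7809.1, 324.6 and 2209.5 on activated replicates 1, 2 and 3, and 1017.5 and 493.0 on the naive arrays. Lyz1 and Lyz2 made up most of it on activated replicate 1, at 3323.6 and 1953.9. Of the 18 markers 13 were highest on that array. C1qb, C1qc, Cd14 and Adgre1 were highest on activated replicate 3, and Fcgr1 on naive replicate 1. Of these markers 17 were tested and 0 passed in either direction (1, Cd68, was higher at an unadjusted p under 0.05), and 0 of 18 stayed at or below the filter intensity on all arrays. Of 6 tested NK cell markers 2 passed, Klrc1 at 2.21 (adjusted p = 0.00682) and Eomes at 2.19 (adjusted p = 0.0135). Both were higher on every activated array, as Lgals1 and Anxa2 were. The other 4 did not pass: Ncr1 lay at 1.16, Klre1 at 0.74, Gzma at -0.17 and Prf1 at -1.48 (unadjusted p = 0.0255). Ncr1 read 265.3 on activated replicate 1 and at most 11.2 on every other array. The sum of 7 NK cell markers (of 10 listed) was 4005.9, 713.4 and 709.6 on the activated and 1126.9 and 917.7 on the naive arrays, and their part in the rise of Lgals1 and Anxa2 was not tested. Of 8 tested B cell and plasma cell markers 1 passed, Cd22, at 1.21. The median of that list was -0.05, and Sdc1 lay at -0.86 (unadjusted p = 0.00894). Of 2 tested CD8 T cell markers 1 passed, Cd8b1, at -1.61, while Cd8a lay at -0.35 (adjusted p = 0.653). Lgals3 and Anxa1 were highest on activated replicate 1, next on activated replicate 3 and then on naive replicate 1, as was the sum of the markers. S100a4, S100a6 and Anxa5 were also highest on activated replicate 1. S100a8 and S100a9, which form the neutrophil and monocyte protein calprotectin, read 457.0 and 378.7 on activated replicate 1 and at most 41.2 on every other array. The part of macrophages or neutrophils in the values of Lgals3, Anxa1, Lgals1 and Anxa2 was not tested. Lgals1 was highest on activated replicate 2 on both probe sets. Anxa2, on 1419091_a_at, was highest on activated replicate 1, at 734.0, and read 596.8 on activated replicate 2. Without activated replicate 1, Lgals1 lay at 1.30 on 1455439_a_at and Anxa2 at 1.77. The sum of 10 CD4 T cell markers ran from 19262.9 to 21147.2 across the activated arrays and from 17819 to 18395.6 on the naive arrays. Among these 10, 2 passed as higher, Cd5 at 1.85 and Zap70 at 0.71, and 1 as lower, Thy1 at -0.79.

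**Figure D4:**
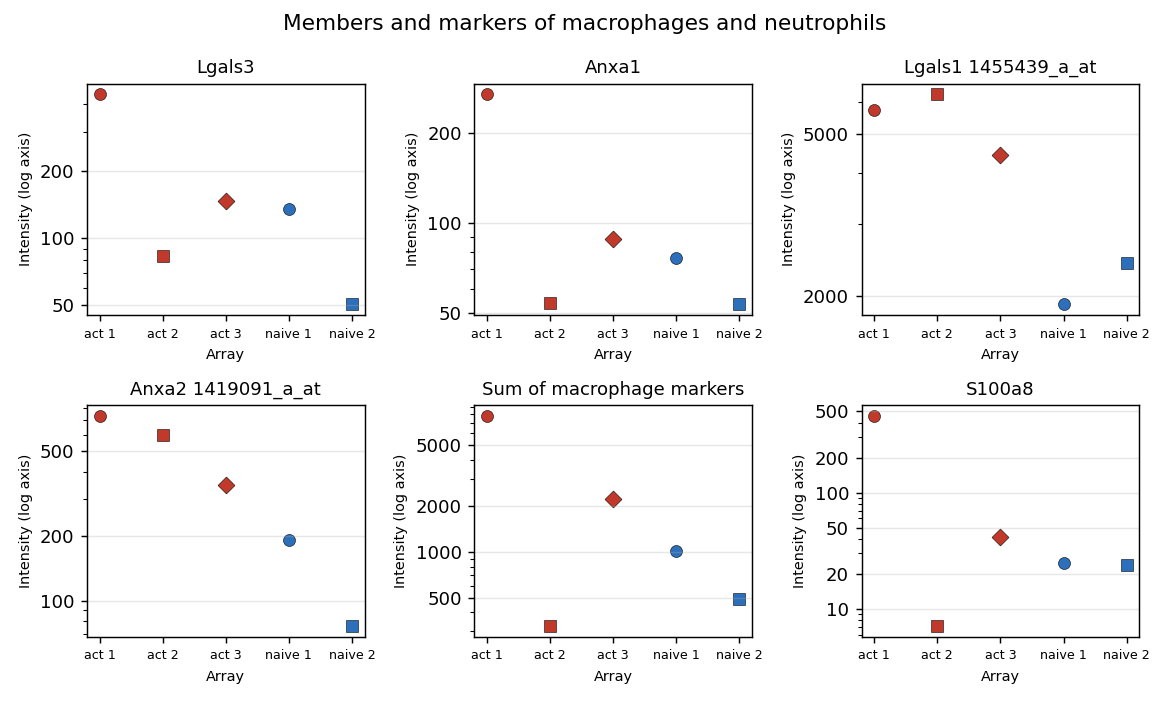
Intensity (log axes, different in each panel) of Lgals3, Anxa1, Lgals1, Anxa2, the sum of 18 macrophage markers and S100a8 on each of the 5 arrays, activated in red and naive in blue. Lgals3, Anxa1, Anxa2, the macrophage sum and S100a8 are highest on activated replicate 1. Lgals1 and Anxa2 are above the naive arrays on all 3 activated arrays.

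The genes whose profiles over the 5 arrays were nearest to each member were found by the root mean square distance of centred log2 values, as a description. Nearest to Lgals1 was the chemokine receptor Cxcr4 (distance 0.08), followed by the kinesin Kif18b and Zfp518b (both 0.09). Nearest to Anxa2 were Gsap (0.16), the enkephalin precursor Penk (0.25) and Pglyrp1 (0.27). Nearest to S100a6 was the integrin chain Itgb1 (0.16), then Rest (0.17) and Ube2n (0.19). Nearest to Lgals3 were Ly86 (0.22), Cfb (0.24) and Clec4a3 (0.24), and nearest to Anxa1 were H2-DMb2 (0.08), the kinase Syk (0.13) and Alox5ap (0.15), several of them genes of myeloid or B cells. S100a4 had Depp1 (0.27), 2610020C07Rik (0.29) and Polr3f (0.30) as its nearest genes. S100a10, Anxa5 and Anxa6 varied by at most 0.81 over the arrays on their brightest probe sets. Their nearest genes were Heyl, Aipl1 and Atp5j for S100a10, Susd6, Mrpl21 and Eif2ak3 for Anxa5, and Pla2g2d, Hspb8 and Dsg2 for Anxa6, all within 0.05.

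Among other members of the 3 families few passed the test. Of 6 tested other S100 genes 0 passed, with a median of 0.40, and 1, S100a13, was higher at an unadjusted p under 0.05. Of 4 tested other annexins, Anxa4 rose by 1.09 ± 0.23 (SE, adjusted p = 0.0186), from 33.2 and 31.5 on the naive to 110.7, 67.9 and 86.1 on the activated arrays. Its call was lost under 5 of 18 alternatives, among them the omission of activated replicate 1 or 3 or of naive replicate 2, where it lay between 0.94 and 1.09 (adjusted p from 0.0562 to 0.0786). Of 7 tested other galectins 0 passed, with a median of -0.02, and at an unadjusted p under 0.05 Lgals7 and Lgals4 were included, 1 in each direction. Lgals9, a ligand of the inhibitory receptor Tim-3, read 921.0, 978.5 and 896.3 against 1085.6 and 908.0. Of 14 tested binding partners and receptors of S100 proteins and annexins 0 passed, with a median of 0.19, and at an unadjusted p under 0.05, 3 were higher and 1 lower. The 14 included the scaffold Ahnak, the myosin Myh9, a target of S100A4, and the annexin A1 receptor Fpr2, which read 163.9 on activated replicate 1 and at most 20.5 on the other arrays.

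Most genes that shape or carry galectin ligands did not pass. Of 19 tested counter-receptors and binding proteins, 3 rose (15.8%) and 1 fell (5.26%), with a median of 0.29, beside 5.53% and 3.2% of all genes tested. At an unadjusted p under 0.05, 6 were higher and 1 lower. The inhibitory receptor Lag3 rose by 1.40 (adjusted p = 0.0319), the integrin chain Itgb1 by 1.22 (adjusted p = 0.0400) and the hyaluronan receptor Cd44 by 1.15 (adjusted p = 0.0406), and the glycoprotein Thy1 fell by 0.79 (adjusted p = 0.0239). The call of Lag3 was lost without naive replicate 2, at 0.82 (adjusted p = 0.172), and without any activated array, at 1.29 to 1.54. The call of Itgb1 was lost without naive replicate 2, at 0.84 (adjusted p = 0.230), and without activated replicate 1 or 2, at 1.08 and 1.07. Averaged over its probe sets, Itgb1 lay at 0.64 (adjusted p = 0.107). The call of Cd44 was lost without naive replicate 2, at 0.60 (adjusted p = 0.233), and without any activated array (adjusted p from 0.0516 to 0.143). The call of Thy1 was lost without activated replicate 2 or either naive array (adjusted p from 0.0595 to 0.138). Of 20 tested glycan synthesis genes, 3 rose (15%) and 1 fell (5%), with a median of -0.09. At an unadjusted p under 0.05, 4 were higher and 5 lower. B3gnt2, which extends poly-lactosamine chains that galectins bind, read 1054.1, 1100.1 and 1017.4 on the activated and 375.4 and 338.2 on the naive arrays. Its rise of 1.53 ± 0.16 (SE, adjusted p = 0.000367) was kept under all 18 alternatives in which it was fitted. Gcnt1, which branches O-glycans, rose by 0.96 (adjusted p = 0.0494), a call lost under 9 of 18 alternatives, among them the omission of any array but activated replicate 1 (adjusted p from 0.0767 to 0.201). The sialyltransferase St3gal1 rose by 0.84 (adjusted p = 0.0492), a call lost under 11 of 19 alternatives, among them the omission of any array (adjusted p from 0.0508 to 0.224). Mgat4a, an N-glycan branching enzyme, fell by 1.08 (adjusted p = 0.00889), and lost its call without activated replicate 2 or naive replicate 2 (adjusted p 0.0538 and 0.0525). Averaged over its probe sets it lay at -0.61 (adjusted p = 0.0631).

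Of 16 tested genes of membrane repair and calcium-dependent membrane binding, 1 rose and 2 fell, with a median of -0.14. At an unadjusted p under 0.05, 1 was higher and 3 lower. The phospholipid scramblase Plscr1 rose by 1.91 ± 0.27 (SE, adjusted p = 0.00216), from 28.2 and 14 to 89.4, 159.5 and 122.1. Its probe set 1453181_x_at has the suffix that warns of cross-hybridisation. The membrane tether Esyt1 fell by 1.01 (adjusted p = 0.0183) and Plscr3 by 0.69 (adjusted p = 0.0480), the latter a call lost under 12 of 19 alternatives, among them the omission of any array (adjusted p from 0.0672 to 0.217). The call of Esyt1 was lost without activated replicate 1 or either naive array (adjusted p from 0.0523 to 0.0849). Of 24 tested cytoskeletal genes often high in effector and memory T cells, 4 were higher and 6 lower at an unadjusted p under 0.05. Their median was -0.02, and at an adjusted p under 0.05, 1 rose and 1 fell. They were Itgb1, at 1.22, and the membrane protein Emp3, which fell by 1.42 (adjusted p = 0.0302), from 696.7 and 660.4 to 414.4, 241.1 and 142.8. The call of Emp3 was lost without activated replicate 2 or either naive array (adjusted p from 0.0892 to 0.107). Over all 107 tested genes of these lists 8 rose (7.48%) and 5 fell (4.67%), with a median of 0.02, against 5.53% and 3.2% of all genes tested and a median of -0.03.

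**Figure D5:**
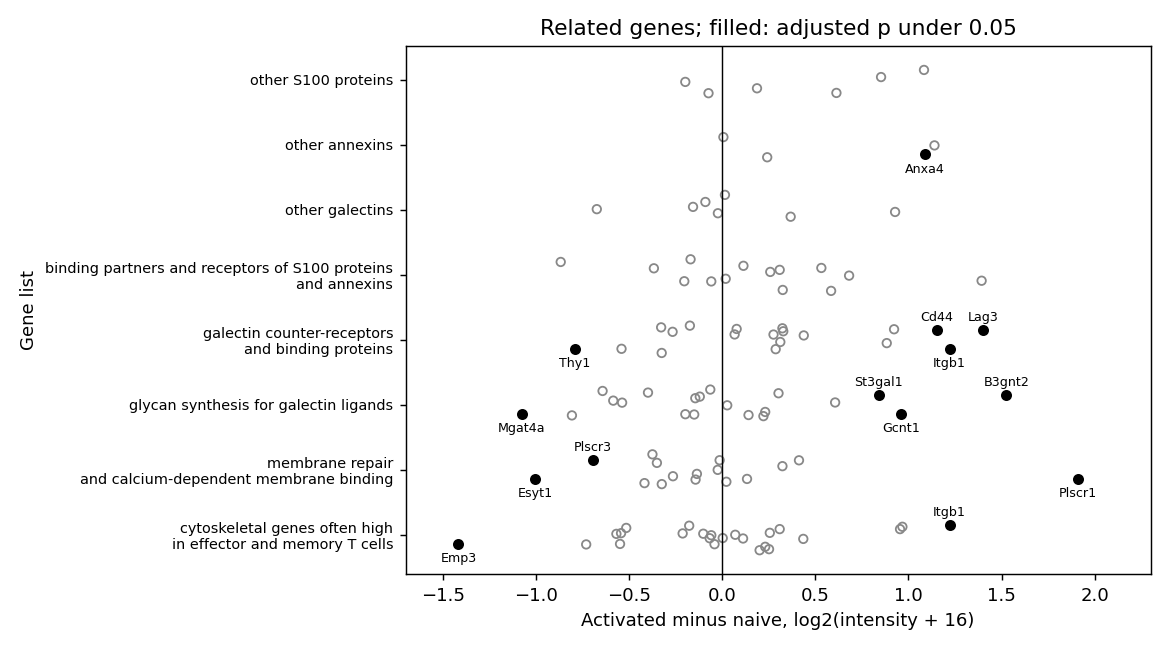
Activated minus naive difference on log2(intensity + 16) for the tested genes of 8 related lists, 1 point per gene by its brightest probe set; vertical scatter within a list has no meaning and filled, named points have an adjusted p under 0.05. Plscr1, at 1.91, and B3gnt2, at 1.53, are the furthest called points to the right and Emp3, at -1.42, the furthest to the left.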

How the data were processed

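Trizol-extracted total RNA of 5 samples was labelled as biotinylated cRNA and hybridised to Affymetrix arrays, per the labels' protocols. The deposited values are linear intensities, 1 for each probe set on each array. How probes were summarised and whether presence was called is not given in the sources used here. Every array had a 2% trimmed mean of 100, so changes are relative to the array average. The platform annotation gave 1 symbol to 34945 probe sets, several to 932 and none to 9160, and a further 64 array controls were left out of the tests. Values were transformed as log2(intensity + 16). Array medians differed by 0.17 on this scale, under the limit of 0.5, so no further normalization was applied. All 29201 probe sets above the filter were fitted with limma 3.58.1 in R 4.3.3 (lmFit on the group, then eBayes with an intensity trend), two-sided, with Benjamini-Hochberg adjustment. In counts of genes, each gene stands by the probe set with the highest mean. The fitting code was tested on simulated data. With 3 arrays against 2, precision is limited by their number. The labels call the samples biological replicates from independent experiments. Any pair of arrays shared at most 0.947% of values, so none duplicated another. The ratio of the Actb 3' to 5' control probe sets, a measure of RNA quality, ran from 1.19 to 1.29 on the activated arrays. It was 1.42 and 1.78 on the naive arrays, above every activated array. A part of this ratio in the differences cannot be told apart from the group.

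The members, gene lists and tests were chosen with earlier results of these data known. Named genes are the members on every probe set, the 2 largest rises and falls among called genes of each related list, and the 3 genes nearest to each member in profile; other names were chosen after their values were seen. Lists of markers of 11 cell types were summed per array: besides those in the text, sums ran from 60.8 to 123.5 for endothelium, from 146.0 to 233.8 for fibroblasts, from 92.0 to 386.2 for dendritic cells, from 117.8 to 1073.3 for neutrophils and mast cells, from 127.9 to 224.2 for B and plasma cells, from 709.6 to 4005.9 for NK cells, from 271.2 to 1040.3 for CD8 T cells, from 93.4 to 260.2 for erythroid cells and platelets and from 193.3 to 336.5 for exocrine pancreas. NK, dendritic, fibroblast and neutrophil sums were highest on activated replicate 1. Of 7 tested exocrine pancreas markers 2 passed, Cela3b and Ctrb1, both lower in activated cells. At an unadjusted p under 0.05, 5 were lower and 1, Prss2, was higher. Alternatives covered normalization, filter, pseudocount, the unit of the fit, variance modelling, array weights, the replicate number and the bioC side as blocks, and the omission of each array.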

Additional observations from a re-analysis of the deposited data

How the results depend on the processing

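Up to 19 alternatives were run for each result. Replicate numbers paired no samples by the labels, and only 2 are shared. Deviations from the group means correlated at 0.17 for replicates 1, -0.12 for replicates 2 and 0.30 for activated replicate 3 with naive replicate 2. The 2 naive arrays deviate from their mean by equal and opposite amounts. These correlations are therefore not independent and cannot decide whether arrays were paired. With the replicate number as a block, S100a6 at 1.44 (adjusted p = 0.00341), S100a10 on 1416762_at at 0.74 (adjusted p = 0.0212) and Lgals3 at 1.09 (adjusted p = 0.0394) passed, which made 4 member genes and 6 member probe sets higher, while Anxa6 turned to 0.11 on 1415818_at and 0.049 on 1429246_a_at and S100a10 to 0.23 on 1439348_at. Activated replicate 3 has no partner and adds nothing to the difference in that fit. With the bioC side as a block, 1487 probe sets, 10 related genes and 2 member probe sets were lower. Without the filter, 870 probe sets were higher and 510 lower, and 2 and 1 related genes. With 1 probe set per gene 819 were higher and 533 lower, and with the mean of a gene's probe sets 846 and 493, over fewer units. Among probe sets without a suffix, which leaves out those of Lgals1 and the brightest of Anxa2, 0 member genes and 0 member probe sets were higher, and 5 related genes were higher and 8 lower. Without the intensity trend, 5 related genes were higher and 1 lower. The 2 lower member probe sets, Anxa6 1442288_at added, also came with median centring, the filter at the 60th percentile, a pseudocount of 64 and robust variances. Apart from the gene units and the suffix, the cause was not tested.

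When single arrays were left out, 723 to 1334 probe sets were higher and 325 to 645 lower, 2 to 6 related genes higher and 0 to 4 lower, 1 to 3 member genes and 2 to 4 member probe sets higher, and 1 to 2 member probe sets lower. Differences with sign changes ran from -0.017 to 0.19 for Anxa5, from -0.30 to 0.11 for Anxa6 on 1415818_at, from -0.31 to 0.067 on 1429246_a_at, from -0.22 to 0.23 for S100a10 on 1439348_at and from -0.47 to 1.39 for S100a4. Where a naive array was left out, the other was assumed to vary like the activated ones. The 2 naive arrays, and probe sets near the background intensity, limit what could be called.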
